A study of Mus musculus with 14 samples.

Results

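The effect of PD-L1 blockade was examined in regulatory T cells (Tregs) that carried PD-1 on their surface and were sorted from mouse tumours. The comparison rests on 5 of the 14 libraries of the series, chosen by their labels: 3 from mice given an antibody against PD-L1 and 2 from mice given an isotype control antibody. All mice were labelled as female C57BL/6 animals of 8 to 12 weeks, and every group, controls included, carried the genotype written as GATIR Foxp3Cre-rfp Gata3Cre-yfp, in which red fluorescence reports Foxp3. Their subcutaneous tumours were grown from AE17-OVA mesothelioma cells, which carry ovalbumin as a model antigen. Treated mice received 200 µg of clone MIH5 against PD-L1, and controls clone 2A3, by intraperitoneal injection on day 10, and the tumours were collected on day 13, although another wording in the labels can be read as 13 days after treatment. The PD-1+ Tregs were sorted by the red Foxp3 reporter together with CD25, CD4 and PD-1, and Smart-seq2, a full-length cDNA method for small inputs without molecular identifiers, was used for the libraries. Libraries of PD-1- Tregs (2 treated, 2 isotype) and of other CD4 T cells (3 treated, 2 isotype) served as reference levels. The sources used here do not say whether a library came from 1 animal or from pooled animals, so the p-values reflect only how these libraries vary, which may in part be technical.

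Tregs are CD4 T cells that depend on the transcription factor Foxp3 and restrain other T cells, and in tumours many of them carry PD-1. When PD-1 meets its ligand PD-L1 it recruits phosphatases that dampen signals from the T cell receptor and CD28. Interferon-gamma, made by activated T and NK cells, acts through a receptor of the chains Ifngr1 and Ifngr2 and the kinases Jak1 and Jak2, and its signal induces genes such as Irf1 and families of large GTPases that defend cells against intracellular microbes.

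The sorted cells were first checked against their labels. Cd3e, a chain of the T cell receptor complex, stood at 227 and 262 CPM (read counts scaled to the library's total and edgeR's TMM factor) under isotype and at 334, 373 and 364 under treatment. Il2ra, which encodes CD25, ran from 192 to 391 CPM over the 5 libraries, and Ctla4, an inhibitory receptor of Tregs, from 324 to 933. Foxp3 was uneven, with isotype libraries at 15.9 and 94.7 CPM and treated ones at 31.1, 156 and 45.7, so that the arms overlapped. In isotype CD4 T cells it ran from 16.3 to 20.8 CPM, so the first isotype PD-1+ Treg library lay below them, and in isotype PD-1- Tregs from 114 to 186. Pdcd1, the gene of PD-1, stood at 115 and 85.6 CPM in isotype libraries and at 227, 246 and 125 in treated ones, without overlap (0.99 ± 0.47 on the log2 scale, edgeR's adjusted p = 0.615). These genes, apart from Cd3e and Ctla4, belong to the sort and are no findings.

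Total counts ran from 11246084 to 13552040 over the 5 libraries, and 9662 to 11312 genes had at least 1 count. The third treated library held 2929 counts of Y-linked genes and 10 of Xist, although the mice were labelled female. Of the 14 libraries 3 held such counts, 1 in each treated population, with 2767 in the third treated CD4 library and 2966 in the second treated PD-1- library. All isotype and other treated libraries held at most 1. The 3 libraries with Y-linked counts share the number 3 in their column names, and whether they share a source was not tested. The first and second treated libraries held 0 Y-linked counts, and 7787 and 1326 counts of Xist. Results are therefore also given for the first and second treated libraries alone. RNA of other cells was present in both arms: markers of macrophages and monocytes (18 genes) summed to 6918 and 9999 CPM under isotype and to 5645, 6586 and 7299 under treatment. Markers of mesothelial tumour cells and stroma (16 genes) summed to 1109 and 704 CPM under isotype and to 833, 574 and 1948 in treated libraries, highest in the third treated one. The sum included genes of stroma, such as the collagen gene Col1a1 (118 to 641 CPM). The epithelial and mesothelial genes Msln, Krt8, Krt18 and Krt19 were at 0 counts in the 5 libraries. The list also holds the mesothelial genes Wt1 and Upk3b, whose levels are not given here, so RNA of tumour cells is not shown to be absent.

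**Figure D1:**
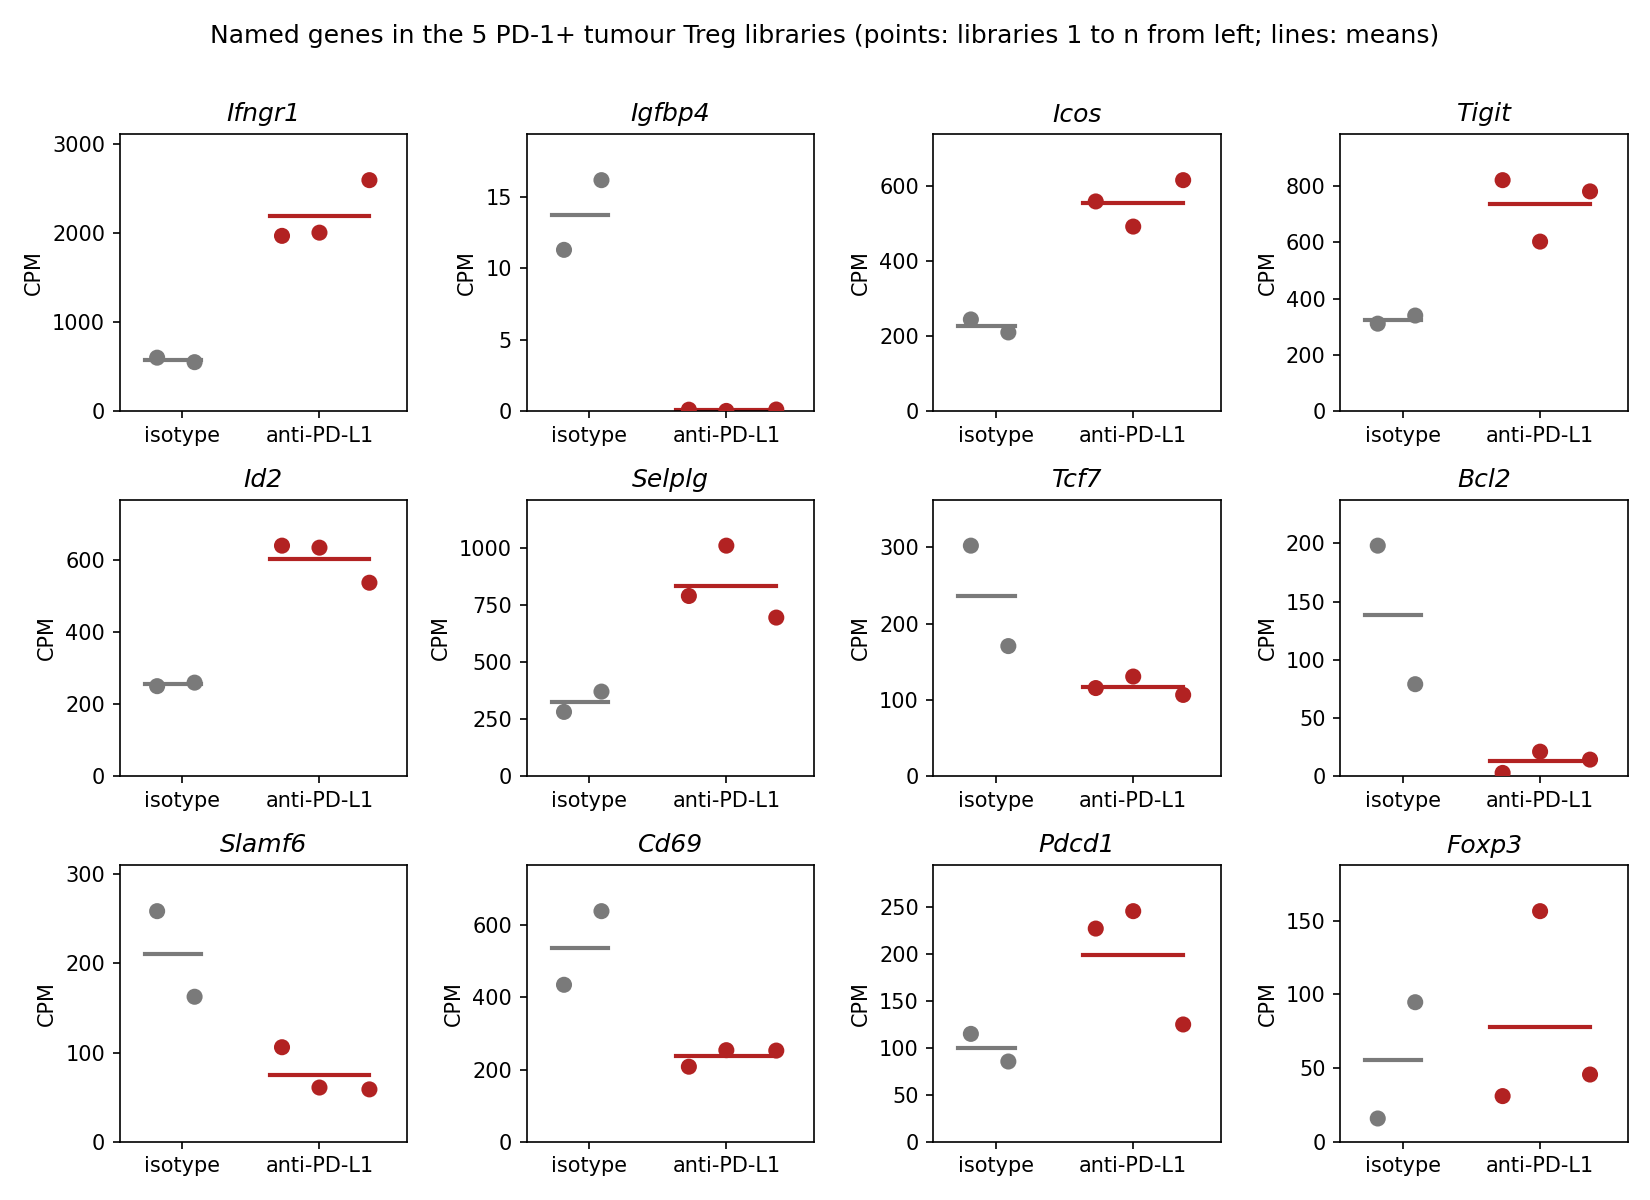
Levels of 12 genes (CPM, y axis) in the isotype (grey) and anti-PD-L1 (red) PD-1+ Treg libraries, 1 point per library and a line at the mean of each arm. Ifngr1 lies at 549 and 599 CPM under isotype and above 1970 under treatment, Igfbp4 lies near 0 in the treated libraries, and the arms of Foxp3 overlap.

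Of 13434 genes tested, 2 passed the threshold of an adjusted p of 0.05 (0.0149%), 1 higher and 1 lower (0.00744% each). Ifngr1 encodes the chain of the receptor that binds interferon-gamma itself (chromosome 10, 19591949 to 19610229, NCBI gene 15979, in RefSeq GRCm38.p6). It stood at 599 and 549 CPM under isotype and at 1970.5, 2007 and 2598 under treatment. The lowest treated library was far above the higher isotype library. Ifngr1 rose by 1.93 ± 0.21 on the log2 scale (SE, edgeR's quasi-likelihood test, adjusted p = 0.00564), and by 1.79 with an adjusted p of 0.0373 without the third treated library. The call was lost without the first isotype library (adjusted p = 0.158 in edgeR), without the second (0.104) and in a fit of the 5 PD-1+ libraries alone (0.722).

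Igfbp4 encodes a secreted protein that binds insulin-like growth factors, and it is among the markers of naive mouse T cells (NCBI gene 16010, chromosome 11, 99040005 to 99052655). It stood at 11.3 and 16.2 CPM under isotype and at 0.0858, 0 and 0.0974 under treatment, where 2 counts remained in the 3 libraries. Igfbp4 fell in the edgeR test with an adjusted p of 0.00564, and the ratio of its pooled counts was 239.7, with an exact 95% interval from 65.9 to 1988 for counting error. Without the third treated library its adjusted p was 0.0419, in a fit of the 5 libraries alone 0.872 and with the replicate number as a block 0.0664 (edgeR). That interval holds no other error, and amplified reads are not independent molecules.

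Ifngr1 was also higher in the other treated populations. In PD-1- Tregs its level was 542 to 561 CPM under isotype and 1836 to 2600 under treatment, and in CD4 T cells 400.5 to 433 against 1475 to 1996. The test of the difference between effects gave -0.07 on the log2 scale against PD-1- Tregs and -0.15 against CD4 T cells (edgeR's adjusted p = 0.9999 and 1.00), which does not show that the effects are equal. For Igfbp4 the effect in PD-1+ Tregs differed from that in PD-1- Tregs by -6.84 on the log2 scale (edgeR's adjusted p = 0.0107). Its level in the latter was 103 ± 6.75 CPM under isotype and 58.9 ± 19.8 under treatment (SD, n = 2 each).

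DESeq2, run as an alternative, called 721 genes, 365 higher and 356 lower, and both edgeR calls were among them. Most of what follows rests on genes that did not pass the threshold, and is given as values with the number of genes whose treated libraries all lay above, or all below, both isotype libraries. Over all tested genes, every treated library was above both isotype libraries for 1033 genes (7.69%) and below both for 1540 (11.5%). With only the first and second treated libraries these shares were 14.8% and 16.6%. A fitted log2 fold change above 0 was found for 48% of genes and one below 0 for 46.4%, with a median of 0 and an interquartile range from -0.68 to 0.78. In bulk samples such as these, fewer cells of a type and less RNA per cell cannot be told apart.

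The GTPases induced by interferon-gamma were followed first beyond the receptor. The regions upstream of their start sites are shown because interferon-regulated genes are known to carry an interferon-stimulated response element (ISRE) or a gamma-activated site (GAS), and because these genes stood higher together. RefSeq (GRCm38.p6) gave start sites for 9 of the 15 genes. Each line gives the 250 bases before the start of a gene whose treated libraries all lay above both isotype libraries, with matches on either strand in capitals: for the ISRE, GAAA, any 2 bases and GAAA, and for the GAS, TTC, any 3 bases and GAA.
Gbp7, chr3:142530086-142530335, plus strand: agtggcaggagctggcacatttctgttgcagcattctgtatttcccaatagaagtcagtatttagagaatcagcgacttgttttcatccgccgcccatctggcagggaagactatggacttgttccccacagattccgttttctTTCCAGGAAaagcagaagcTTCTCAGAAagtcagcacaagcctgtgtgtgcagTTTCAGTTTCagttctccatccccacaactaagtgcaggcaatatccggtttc
Igtp, chr11:58199306-58199555, plus strand: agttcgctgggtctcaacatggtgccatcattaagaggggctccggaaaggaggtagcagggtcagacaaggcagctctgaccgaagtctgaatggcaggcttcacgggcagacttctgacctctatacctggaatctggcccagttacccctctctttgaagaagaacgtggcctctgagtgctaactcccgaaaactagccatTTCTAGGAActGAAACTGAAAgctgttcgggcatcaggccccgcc
Irgm1, chr11:48871421-48871670, minus strand: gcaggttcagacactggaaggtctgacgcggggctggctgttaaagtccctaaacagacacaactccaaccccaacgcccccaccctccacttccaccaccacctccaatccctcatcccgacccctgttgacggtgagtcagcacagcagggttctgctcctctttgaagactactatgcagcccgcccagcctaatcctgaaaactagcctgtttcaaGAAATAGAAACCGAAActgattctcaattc
Tgtp2, chr11:49064213-49064462, minus strand: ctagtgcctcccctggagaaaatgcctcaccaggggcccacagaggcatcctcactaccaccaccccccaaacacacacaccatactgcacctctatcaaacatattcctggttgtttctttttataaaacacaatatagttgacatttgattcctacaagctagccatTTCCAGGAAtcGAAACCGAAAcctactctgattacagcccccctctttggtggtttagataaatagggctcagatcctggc
Gbp7 holds 1 ISRE match and 2 GAS matches, Igtp and Tgtp2 hold 1 of each with the GAS match shortly upstream of the ISRE match, and Irgm1 holds 2 overlapping ISRE matches and 0 GAS matches. An ISRE match was found in 9 of the 9 genes against 3.46% of 27025 genes with the same window, and a GAS match in 6 of the 9 against 8.13%. The ISRE and GAS matches do not overlap each other in the printed windows, and a match is a description of letters, not of binding.

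Of the 15 GTPases, 12 had a log2 fold change above 0, and 6 had every treated library above both isotype libraries against 7.69% of all genes. Their median log2 fold change was 0.84, and 0.62 without the third treated library. The first and second treated libraries alone were above both isotype libraries in 7 genes, against 14.8%. Gbp7, a guanylate-binding protein, stood at 124 and 319.7 CPM under isotype and at 449, 688 and 718 under treatment (1.48 ± 0.38, adjusted p = 0.527). The isotype libraries of Gbp7 differed from each other by more than the treated ones did in ratio, but both lay under all treated libraries. Igtp, an immunity-related GTPase also called Irgm3, stood at 416 and 254 CPM against 563, 547 and 818 (0.94 ± 0.26, adjusted p = 0.548). Iigp1, which attacks the vacuoles of intracellular parasites, stood at 51.4 and 37.0 CPM against 180.2, 138 and 226 (2.04 ± 0.62, adjusted p = 0.578), the largest difference of the 6 on the log2 scale. Irgm1 (134 and 111 CPM against 146, 231 and 405), Tgtp2 (90.9 and 67.1 against 178, 102 and 190.2) and Gbp6 (76.2 and 54.8 against 131, 76.4 and 157) were the other 3 without overlap. Gbp4 was level, with 326 and 223 CPM against 339, 219.7 and 258. Genes of these families are near copies of each other, Tgtp1 and Tgtp2 above all, so the split of reads between them is uncertain.

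**Figure D2:**
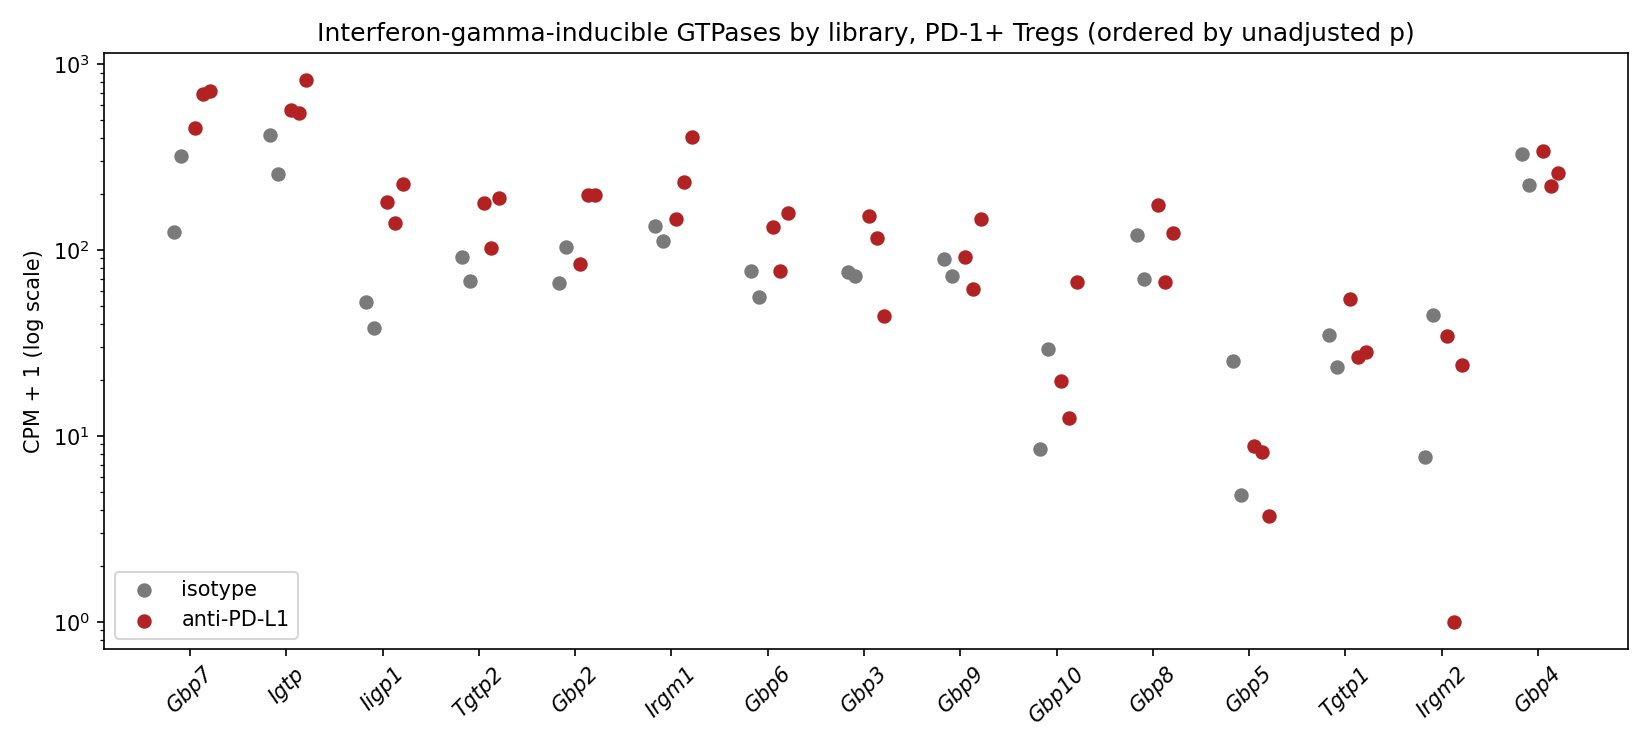
Levels of the 15 interferon-gamma-inducible GTPases (CPM + 1, log scale) in each PD-1+ Treg library, isotype in grey and anti-PD-L1 in red. In Gbp7, Igtp, Iigp1, Tgtp2, Irgm1 and Gbp6 all red points lie above the grey ones, while those of the other 9 genes overlap.

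Between receptor and GTPases, 7 of 11 signalling genes were above 0, with a median of 0.49. Ifngr1, Jak2 and Irf1 lay wholly above the isotype libraries, as did 7.69% of all genes, and 0 of the 11 lay wholly below. The median was 0.27 without the first isotype library. Jak2, the kinase bound to Ifngr2, stood at 32.4 and 44.0 CPM under isotype and at 272, 73.0 and 294 under treatment (2.48 ± 1.17, adjusted p = 0.615). Irf1, a transcription factor that interferon-gamma induces, stood at 63.0 and 85.0 CPM against 158, 101 and 165 (0.93 ± 0.49, adjusted p = 0.647). The other receptor chain, Ifngr2, stood at 26.2 and 78.6 CPM against 69.4, 158 and 119, and Jak1 at 208 and 291 against 419.8, 345 and 286, both with overlapping arms. The second treated library was the lowest treated one for Jak2 and Irf1.

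Other classes of interferon-regulated genes differed among themselves. Genes of MHC class I presentation were above 0 in 7 of 18, with a median of -0.07 that ran from -0.20 to 0.04 over the alternative settings. H2-K1, a classical class I heavy chain, stood at 2408 and 2592 CPM against 3081, 2776 and 2723, without overlap, while Tap2, a subunit of the peptide transporter, stood at 238 and 265 against 224, 229 and 109. Class I heavy chain genes are near copies of each other, so the level of H2-K1 is uncertain. B2m, the class I light chain, overlapped (5222 and 5215 CPM against 4965, 6372 and 4913). Of 24 genes of the type I interferon response, 15 were above 0 (median 0.47, and 0.21 without the third treated or the first isotype library). All treated libraries lay above both isotype libraries for 3 of them and below for 3, against 7.69% and 11.5% of all genes. The sum of the 24 genes was 1921 and 2090.3 CPM in the isotype libraries and 2162, 2259 and 2653 in the treated ones, without overlap. Wholly above the isotype libraries were, among others, Ifit3, which binds viral RNA (6.03 and 20.6 CPM against 30.4, 36.1 and 80.0), and Zbp1, a sensor of Z-form nucleic acids. Wholly below were, among others, Bst2 (-0.52 on the log2 scale) and Ifi27l2a (-0.30).

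Genes of Treg function followed no single direction. Of 14 suppressive molecules, 10 were above 0, with a median of 0.56 (0.31 without the second isotype library). All treated libraries lay above both isotype libraries for 5 and below for 2, against 7.69% and 11.5% of all genes. Tigit, a receptor that competes with the costimulator CD226 for shared ligands, stood at 311 and 339 CPM under isotype and at 821, 603 and 781 under treatment (1.18 ± 0.31, adjusted p = 0.527). The isotype libraries lay close together and under all treated ones. Il10, which encodes an anti-inflammatory cytokine, stood at 18.5 and 15.1 CPM against 118, 32.4 and 84.6 (2.22 ± 1.60, adjusted p = 0.85), and Gzmb, the protease granzyme B, at 38.6 and 28.3 against 100.5, 174 and 42.5. Prf1, which encodes the pore-forming protein perforin, went the other way, with 20.5 and 17.9 CPM under isotype and 0 counts in all treated libraries, at least 73.5-fold lower against a floor of 3 counts per library (adjusted p = 0.495).

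Genes of Treg identity were above 0 in 9 of 14, with a median of 0.28 (0.00 without the second treated library). All treated libraries lay above both isotype libraries for 1 of the 14 and below for 1, against 7.69% and 11.5% of all genes. Capg, an actin-capping protein high in Tregs, was the gene above, with 1857 and 1127 CPM against 1998, 2124 and 2004. Swap70 was the gene below (-0.83 on the log2 scale). Transcription factors of effector differentiation were above 0 in 13 of 20 (median 0.41, and 0.22 without the second treated library). Of the 20, 6 lay wholly above the isotype libraries and 2 wholly below, against 7.69% and 11.5% of all genes. Id2, which blocks E proteins and favours effector cells, stood at 250.2 and 259.9 CPM under isotype and at 639.6, 634 and 537 under treatment (1.24 ± 0.25, adjusted p = 0.342). Its arms were narrow and lay far apart. Ets1, a T cell transcription factor, stood at 1142 and 1189.7 CPM against 2751, 1980.4 and 3076 (1.16 ± 0.25, adjusted p = 0.449), and Rora, Hif1a and Gata3 were likewise without overlap. Gata3, which marks Tregs of tissues and Th2 cells, stood at 179.5 and 104 CPM against 253, 256 and 294. Mice of both arms carried the Gata3 Cre and reporter allele.

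Costimulatory molecules leaned one way. Of 14 genes, which hold 10 receptors of the CD28 and TNF receptor families and Cd226, Slamf1, Cd2 and Cd40lg, 13 were above 0 and 0 below. Their median was 0.34, and 4 lay wholly above the isotype libraries, against 7.69% of all genes. Icos, which sustains effector Tregs, stood at 244 and 209 CPM under isotype and at 559, 492 and 616 under treatment (1.29 ± 0.31, adjusted p = 0.506). Tnfrsf9 (4-1BB), Tnfrsf4 (OX40) and Tnfrsf1b (TNFR2) were the other 3, with Tnfrsf4 at 1795 and 1358 CPM against 2059.5, 1829.8 and 2529. The gap in Tnfrsf4 was small, since the higher isotype library nearly reached the lowest treated one. Among 13 inhibitory receptors 7 were above 0 and 6 below (median 0.48, but -0.16 without the first treated library, and 0.05 and 0.17 without the first and second isotype library). Havcr2, which encodes TIM-3, stood at 0 and 1.74 CPM against 41.2, 78.1 and 50.8 (adjusted p = 0.595), and Cd96 at 477 and 185 CPM against 99.4, 169 and 165.

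The ligands of PD-1 were low in these cells. Cd274, which encodes PD-L1, stood at 41.1 and 6.08 CPM under isotype and at 67.1, 42.4 and 22.8 under treatment, with overlapping arms (0.90 ± 1.60, adjusted p = 1.00). Pdcd1lg2, which encodes PD-L2, stood at 24.3 and 19.5 CPM against 84.9, 39.0 and 86.6, without overlap (1.68 ± 1.15, adjusted p = 0.814).

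Receptors for chemokines and adhesion included several of the wider gaps. Of 13 genes, 12 chemokine receptors and the sphingosine-1-phosphate receptor S1pr4, 9 were above 0, with a median of 1.48. In that direction 4 chemokine receptors were without overlap, against 7.69% of all genes, and 1 gene lay wholly below, against 11.5%. Ccr8, a receptor of tumour Tregs, stood at 359 and 308 CPM under isotype and at 584, 696 and 678 under treatment (0.97 ± 0.31, adjusted p = 0.595). Ccr2 stood at 206 and 295 CPM against 464, 667 and 764, and Cxcr3, the receptor of interferon-induced chemokines, at 109.5 and 132 against 525, 379.9 and 321. Cxcr5, which guides cells to B cell follicles, was lower, with 68.9 and 42.5 CPM against 4.80, 1.02 and 0 (adjusted p = 0.596). Selplg, the ligand of P-selectin (PSGL-1), stood at 282 and 371 CPM against 789.7, 1010.05 and 695 (1.35 ± 0.22, adjusted p = 0.115), and Cd44 and Icam1 were likewise without overlap. Genes of the IL-2 receptor and STAT5 were above 0 in 9 of 13, with a median of 0.67, and 0.37 without the first isotype library. Il2rg, the shared gamma chain, stood at 3146 and 2541 CPM against 4206, 4372 and 4975 (0.67 ± 0.19, adjusted p = 0.548), and Il2rb at 75.3 and 129 against 201, 232 and 180.2.

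Genes of resting and follicular T cells were lower. Of 18 resting and central T cell genes 12 were below 0, with a median of -0.64 (-0.28 without the third treated library), and 10 had all treated libraries below both isotype libraries, against 11.5% of all genes. The list includes Igfbp4. Tcf7, the transcription factor TCF-1 of naive and memory T cells, stood at 302 and 171 CPM under isotype and at 116, 131 and 107 under treatment (-1.01 ± 0.34, adjusted p = 0.595). Bcl2, which blocks cell death, stood at 198 and 79.2 CPM against 3.00, 21.2 and 14.4 (-3.43 ± 0.77, adjusted p = 0.479), and Id3 at 50.4 and 28.0 against 0, 2.04 and 0. The second isotype library was the lower of the pair for all 3, and still stood above each treated library. Il7r and Foxo1, on the same list, were higher under treatment without overlap, with Il7r at 45.4 and 7.74 CPM against 183, 107 and 404.

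Follicular helper genes were below 0 in 11 of 13, with a median of -1.31. All treated libraries lay below both isotype libraries for 6 of the 13, against 11.5% of all genes. Slamf6, a self-ligand receptor of the SLAM family, stood at 258 and 163 CPM under isotype and at 106, 60.9 and 58.8 under treatment (-1.48 ± 0.42, adjusted p = 0.548). Izumo1r, the folate receptor FR4, stood at 735 and 803 CPM against 451, 291 and 168 (-1.34 ± 0.39, adjusted p = 0.552). Markers of B cells moved with these genes: 11 of 11 were below 0, 8 of them without overlap, against 11.5% of all genes. Their sum went from 923 and 584 CPM under isotype to 339, 225 and 65.8 under treatment. Ms4a1, which encodes CD20, had 17.6 and 119 CPM under isotype and 0 counts in all treated libraries, at least 261-fold lower against the same floor. The part of B cell RNA in the lower resting and follicular genes, several of which B cells also express, was not tested.

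Genes that the T cell receptor induces split evenly, with 9 of 18 above 0 and 9 below. Ly6a, the antigen Sca-1, stood at 91.4 and 156 CPM under isotype and at 392, 394 and 369 under treatment (1.64 ± 0.28, adjusted p = 0.163). Cd69, an early activation marker that retains cells in tissue, stood at 435 and 639 CPM against 208, 254 and 253 (-1.17 ± 0.26, adjusted p = 0.479). Myc (319.9 and 222 CPM against 159, 104 and 154) and Nfatc1 (194 and 172 against 63.2, 116 and 76.3) were also lower without overlap. For Ly6a and Cd69 the treated libraries lay close together and apart from the isotype pair. Of 22 genes of the receptor complex and its proximal kinases, 14 were above 0, with a median of 0.19 (0.02 to 0.19 when 1 library was left out). Wholly above the isotype libraries lay 2, Cd3e and Lcp2, and wholly below lay 1, against 7.69% and 11.5% of all genes.

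**Figure D3:**
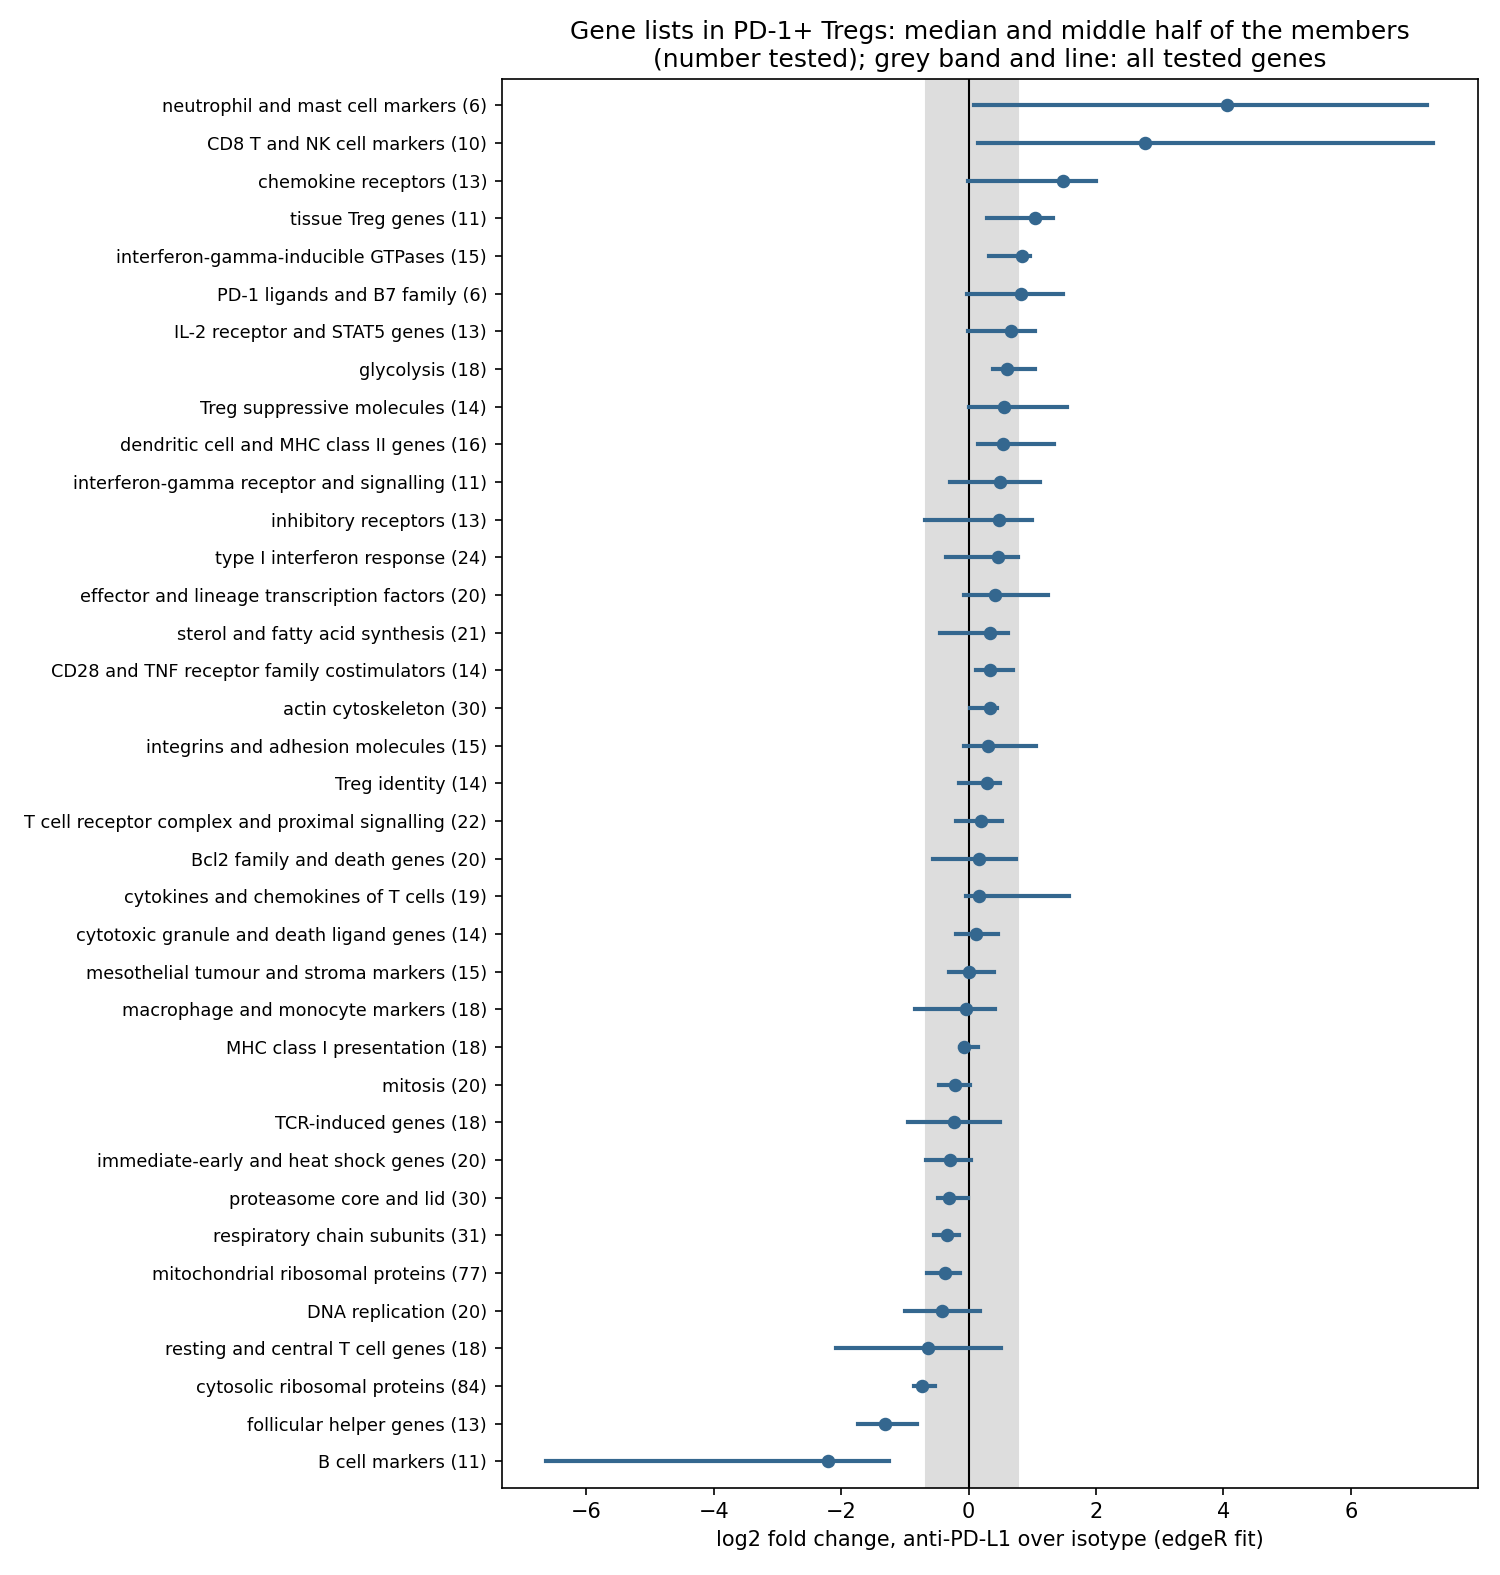
Median log2 fold change of anti-PD-L1 over isotype in PD-1+ Tregs for each gene list (points; bars span the interquartile range of the members, and the number tested is in brackets; the grey band is that of all 13434 tested genes). The lists of neutrophil and mast cell (4.06) and CD8 T and NK cell markers (2.77) lie furthest right, with several members at 0 counts in an arm. Chemokine receptors (1.48) come next. Cytosolic ribosomal proteins (-0.73), follicular helper genes (-1.31) and B cell markers (-2.21) lie to the left. The list of Y-linked and X-inactivation genes is not shown.

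The ribosome showed an even difference. Of 84 tested genes of cytosolic ribosomal proteins, the structural proteins of the machine that makes all other proteins, 0 were above 0 and 83 below, and 71 had all treated libraries below both isotype libraries, against 11.5% of all genes. With the first and second treated libraries alone the number was 77, against 16.6%. The median log2 fold change was -0.73, with an interquartile range from -0.86 to -0.53, and it ran from -0.86 to -0.63 over the alternative settings. At an unadjusted p under 0.05 stood 35 of the 84, all lower, against 5.22% of all genes that were lower and 2.84% that were higher at this level, and the 2 genes past the adjusted threshold are not among them. Rps19, a small-subunit protein, stood at 470.3 and 413 CPM under isotype and at 274, 193 and 226 under treatment (-0.94 ± 0.23, adjusted p = 0.522). Rpl13, of the large subunit, stood at 395 and 341 CPM against 215, 179 and 189 (-0.92 ± 0.23, adjusted p = 0.506). Rps18 stood at 288 and 305 CPM against 145, 89.6 and 158. In each of these 3 genes both isotype libraries lay well above the treated ones, and the third treated library was no lower than the second.

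The sums cover 85 such genes, 84 of them tested. Together they made up 20273 and 18362 CPM in the isotype libraries and 12622, 11125 and 13232 in the treated ones. As a share of all counts they took 2.08% and 1.90% against 1.21%, 1.05% and 1.21%. The same sum was lower in treated CD4 T cells (16865 and 20510 CPM under isotype, 12162 to 14833 under treatment) and in treated PD-1- Tregs (18940 and 22058 against 14014 and 17093). As a share of all counts the PD-1- libraries overlapped, at 2.23% and 1.80% under isotype against 1.48% and 1.83%. Those of PD-1+ Tregs and of CD4 T cells did not overlap, with every treated share below both isotype shares. In edgeR's test, the effect differed between PD-1+ and PD-1- Tregs for 0 of the 84 tested genes. That result does not show equal effects. Ribosomal protein genes have many processed copies in the genome, so the counts of single members are uncertain.

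Gene length moved with this difference. By the length that the deposited counts and RPKM values imply, the shortest of 4 classes of like size had a median log2 fold change of -0.20 and the longest 0.27, with 0.01 and 0.11 between them. Ribosomal protein genes are short, with a median implied length of 859 bases. Within the shortest class, the 70 ribosomal protein genes had a median of -0.71 and 88.6% lay wholly below the isotype libraries. The other 1669 genes of that class had a median of -0.16, and 20.2% of them lay wholly below. The share of the ribosomal RNA locus Rn45s was also lower, from 0.209% and 0.255% to 0.117%, 0.146% and 0.0816% of counts. The part of length or library make-up in the ribosomal difference was not tested beyond these values.

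**Figure D4:**
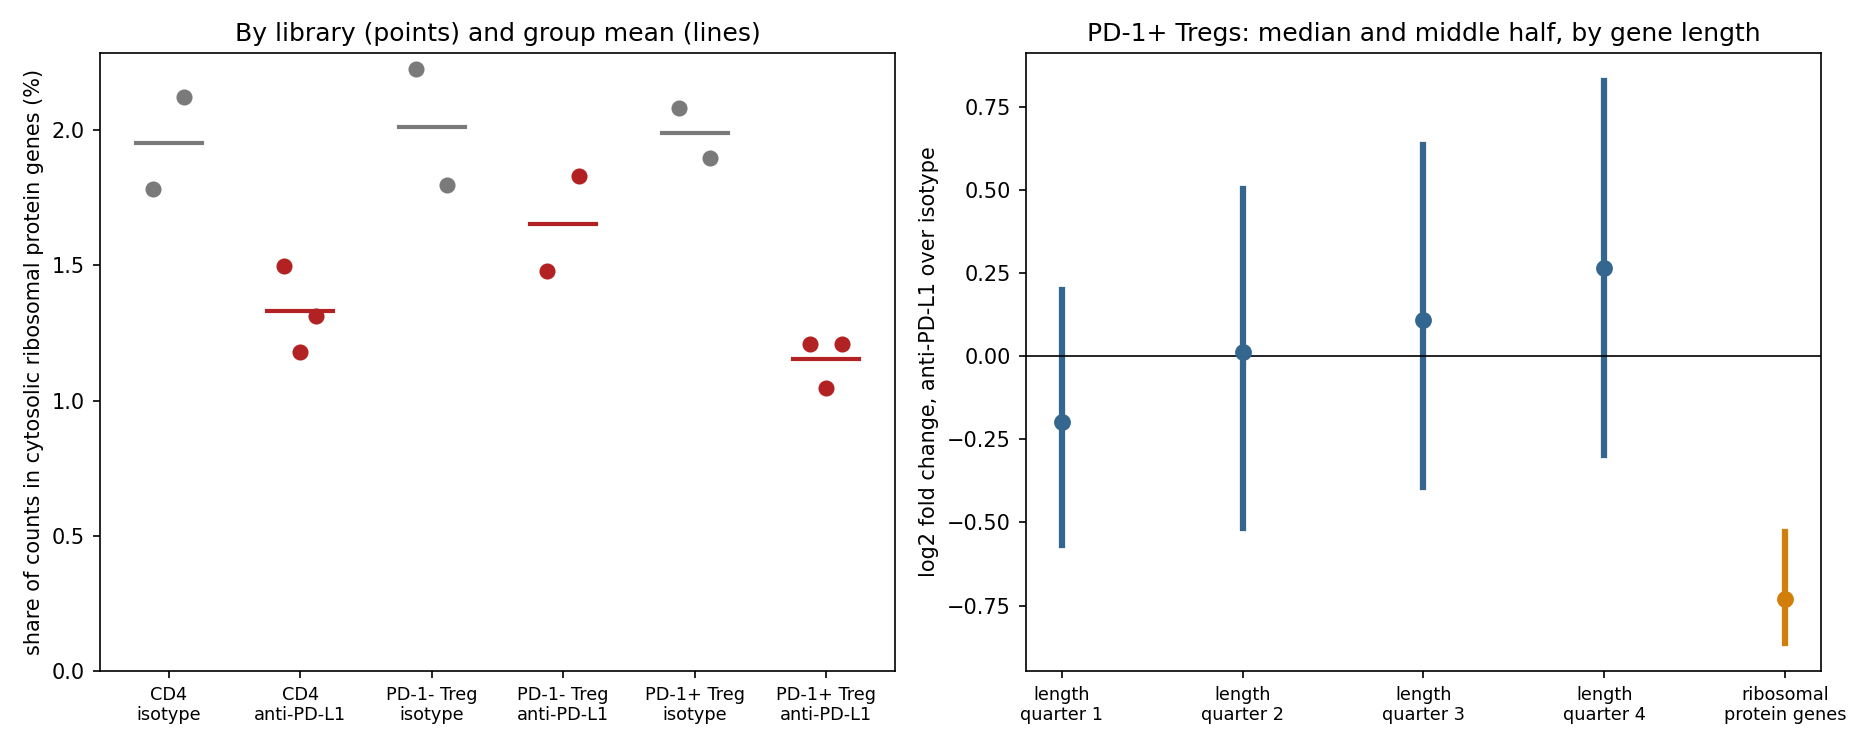
Left, share of all counts (%) in cytosolic ribosomal protein genes in each of the 14 libraries (points) with group means (lines), isotype in grey and anti-PD-L1 in red; PD-1+ Tregs lie at 1.90% and 2.08% under isotype and between 1.05% and 1.21% under treatment. Right, median and interquartile range of the log2 fold change in PD-1+ Tregs for 4 classes of genes by implied length and for the ribosomal protein genes (-0.73).

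Ribosomes of mitochondria leaned the same way but less evenly. Of 77 genes 62 were below 0 (median -0.37), with 17 wholly below the isotype libraries and 2 wholly above. Over all genes these shares were 11.5% and 7.69%, and 22.9% of the shortest length class lay wholly below. Genes of mitochondrial ribosomes are short too, with a median implied length of 1230 bases, and the part of length was not tested. Mrpl37 stood at 234 and 241 CPM under isotype and at 85.4, 124 and 64.2 under treatment. Npm1, a nucleolar protein of ribosome assembly, stood at 497 and 334 CPM against 114, 232 and 142 (-1.35 ± 0.31, adjusted p = 0.489). Cct7, a subunit of the chaperonin that folds actin and tubulin, stood at 653 and 586 CPM against 229, 379 and 132 (-1.33 ± 0.32, adjusted p = 0.506).

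Energy metabolism split by pathway. Of 18 glycolysis genes 15 were above 0 (median 0.60), 8 with all treated libraries above both isotype libraries (against 7.69% of all genes) and 0 with all below. Pfkl, which makes the committed step of glycolysis, stood at 162 and 249 CPM under isotype and at 519, 543 and 273 under treatment (1.11 ± 0.39, adjusted p = 0.595). Pgk1 stood at 166 CPM in both isotype libraries and at 416, 282 and 204 in treated ones. The third treated library was the lowest treated one for both genes, and with the other treated libraries alone 14 of 18 glycolysis genes lay above both isotype libraries, against 14.8% of all genes. Of 31 respiratory chain subunits, by contrast, 27 were below 0 (median -0.34). Wholly below the isotype libraries lay 14 and wholly above 0, against 11.5% and 7.69% of all genes. In the shortest length class 22.9% lay wholly below. Uqcrq, of complex III, stood at 441 and 355 CPM against 231, 154 and 273, and Atp5h, of ATP synthase, at 227 and 210.03 against 145, 88.0 and 123. The respiratory subunits are short too, with a median implied length of 928 bases, and the part of length was not tested.

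The actin cytoskeleton was higher. Of 30 genes 23 were above 0 (median 0.34). Wholly above the isotype libraries lay 10 and wholly below 0, against 7.69% and 11.5% of all genes. The median was 0.17 without the first isotype library. Actb, cytoplasmic beta-actin, stood at 41433 and 34874 CPM under isotype and at 67490.1, 62502 and 79691 under treatment (0.87 ± 0.23, adjusted p = 0.527). It took 3.60% to 4.26% of counts under isotype and 5.88% to 7.27% under treatment. Actr2, a subunit of the Arp2/3 complex that branches actin filaments, stood at 1390.4 and 1195 CPM against 2139, 2019 and 2763 (0.84 ± 0.23, adjusted p = 0.548), and Arpc2 and Myh9 were without overlap too.

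Genes of division and stress stood lower or level. Of 20 DNA replication genes 13 were below 0 (median -0.41, with -0.21 without the first and -0.65 without the second treated library). Wholly below the isotype libraries lay 8 of them, against 11.5% of all genes. Tyms, which makes thymidylate, stood at 175 and 170.4 CPM under isotype and at 67.7, 109 and 84.3 under treatment (-0.99 ± 0.44, adjusted p = 0.607), and Pcna, the sliding clamp of DNA polymerase, at 198 and 226 against 121, 121 and 143. Of 20 mitosis genes 15 were below 0, with a median of -0.21 (-0.38 to -0.11 when 1 library was left out), and 3 had all treated libraries below, a share near the 11.5% of all genes. Hspe1, the small chaperonin of mitochondria, stood at 142 CPM in both isotype libraries and at 61.9, 36.8 and 53.5 under treatment (-1.49 ± 0.48, adjusted p = 0.595). Hspa8 and Hspd1, also chaperones, were lower without overlap, and immediate-early and heat shock genes as a list had a median of -0.29. Of 30 proteasome subunits 22 were below 0 (median -0.31, and -0.19 without the first isotype library). Wholly below the isotype libraries lay 5 and wholly above 1, against 11.5% and 7.69% of all genes. In the shortest length class 22.9% lay wholly below. The median implied length of the proteasome genes was 1554 bases, and the part of length was not tested.

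Cell death genes were mixed, with 11 of 20 above 0 and 9 below. Bcl2 was low, as given above. Bcl2l11, which encodes the death-promoting protein Bim, had 0 counts in both isotype libraries and stood at 9.35, 24.6 and 58.2 CPM under treatment, at least 125-fold higher (adjusted p = 0.595). Bax, which permeabilises mitochondria, stood at 348 and 269 CPM against 130.4, 230.1 and 176.

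Outside the lists, genes named by their rank gave further gaps. Pld3, a lysosomal exonuclease, stood at 43.1 and 47.6 CPM under isotype and at 179.8, 199 and 258 under treatment (2.23 ± 0.36, adjusted p = 0.115). Peli1, a ubiquitin ligase that restrains T cell activation, stood at 265 and 253 CPM against 493, 467 and 483 (0.89 ± 0.17, adjusted p = 0.258). Both had treated libraries close to each other and apart from the controls. Traf5, an adaptor of TNF receptors that tempers IL-6 signalling, stood at 88.1 and 94.1 CPM against 5.49, 12.9 and 5.55 (-3.51 ± 0.78, adjusted p = 0.479). Tti1, a cofactor of the mTOR kinase family, had 0 counts under isotype and 24.3, 39.4 and 24.1 CPM under treatment, at least 119-fold higher (adjusted p = 0.258). Maged2 had 71.2 and 20.3 CPM under isotype and 0 counts under treatment, at least 175-fold lower (adjusted p = 0.177). Of the 13434 genes, 1407 had 0 counts throughout one arm and a level in the other above the floor of 3 counts per library, and Maged2 and Tti1 are among them.

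Markers of dendritic cells and MHC class II genes were also present, at sums of 21048 and 36204 CPM in the isotype libraries and 29019, 52125 and 37270 in the treated ones, with overlap. Of 16 such genes 14 were above 0 (median 0.55, from 0.12 to 1.25 when 1 library was left out). Cd209a, a lectin of monocyte-derived dendritic cells, stood at 485 and 714 CPM against 941, 1823 and 1464, without overlap. The 18 macrophage and monocyte markers were split, with 8 above 0 and 10 below (median -0.04, from -0.50 to 0.18 when 1 library was left out). All treated libraries lay below both isotype libraries for 6 of them, against 11.5% of all genes. C1qa, among these 6, stood at 198 and 396 CPM against 155, 165 and 122. All treated libraries lay above for 1, Ly6c2 (2.25 on the log2 scale), against 7.69% of all genes. Genes of CD8 T and NK cells had a sum of 81.6 and 106 CPM against 178, 99.2 and 102, with Cd8a at 0 counts in 3 of the 5 libraries. Several members of the CD8 and NK and the neutrophil and mast cell lists had 0 counts in an arm, so their medians are not sizes of change. The part of these cells in the T cell lists was not tested.

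The effect of treatment was then compared with that in the other sorted populations. It differed from the effect in PD-1- Tregs for 196 genes (1.46%), 113 with a higher and 83 with a lower log2 fold change in PD-1+ Tregs. Zc3hav1, an antiviral RNA-binding protein, stood at 757 and 508 CPM under isotype and at 1488, 1258 and 2126 under treatment in PD-1+ Tregs. Its level in PD-1- Tregs went from 1931 and 2104 CPM to 638 and 878. The effects differed by 2.77 on the log2 scale (edgeR's adjusted p = 0.00958). Actb, Actr2, Ets1, Alkbh5, Dpysl2 and Il2rg also differed in this direction, each higher under treatment in all PD-1+ libraries and lower in both PD-1- libraries. Nfatc1 differed the other way, going from 24.2 and 24.7 CPM to 109.9 and 256 in PD-1- Tregs. The count of 196 ran from 33 to 878 when 1 library was left out. It moved by more than 1.5 times without any of the CD4 or PD-1- libraries or either isotype PD-1+ library, to 33 without the first isotype PD-1+ library and 878 without the first treated PD-1- library.

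Against CD4 T cells, 0 genes differed in effect in edgeR, with 470 at an unadjusted p under 0.05 (3.5%). DESeq2 gave 313, limma-voom 6, and edgeR 3 without the second isotype PD-1+ library. An effect that misses the threshold in this test is not shown to be equal in the populations.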

How the data were processed

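Smart-seq2 libraries of sorted tumour T cells were measured in 14 samples. The authors deposited raw read counts and RPKM values for 25124 genes. Per the submitters' processing notes, the mm10 build, DESeq2, HOMER 3.12, SAMtools and HISAT2 2.0.4 were used. The sources used here do not say whether counting used strand, so overlapping and antisense genes cannot be told apart.

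Counts were tested with edgeR 4.0.16 in R 4.3.3 (TMM scaling, robust quasi-likelihood F-test). A single fit of 6 group means over the 14 libraries gave the spread (common biological coefficient of variation 1.22). The filter filterByExpr with a minimum count of 10 left 13434 genes, and p-values were adjusted by Benjamini-Hochberg over all of them. Groups came from the labels. The SE is the log2 fold change divided by the square root of F. Where an arm had 0 counts, a bound was set against 3 counts per library. Deposited RPKM values served for implied gene length and for limma 3.58.1 alternatives on log2(RPKM + 1) and log2(RPKM + 0.1). limma-voom and DESeq2 1.42.0 were further alternatives. An exact permutation test of 3 against 2 libraries cannot go below a two-sided p of 0.2 and was not used. The fit was checked on simulated data.

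Named genes were those of the sort and treatment, those past the threshold, the 15 lowest unadjusted p-values in each direction among genes without overlap whose higher arm had a mean of 20 CPM or more, and up to 4 members of each list. Markers of the sorted and of other cell types (among them Ctla4, Cd8a, Msln, Krt8, Krt18, Krt19 and Col1a1) were named from a separate marker list. Jak1, Ifngr2, B2m, Gbp4, Gbp6, Irgm1, Tgtp1, Il7r, Foxo1, Cd226, Slamf1, Cd2, Cd40lg, S1pr4 and Rn45s were added after their values were seen. The libraries compared and the gene lists were chosen with earlier results of these data known.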

Additional observations from a re-analysis of the deposited data

Results flagged for a closer look

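For 11 of the named genes, the effect of anti-PD-L1 in PD-1+ Tregs differed from that in PD-1- Tregs in edgeR's test of the difference (difference of log2 fold changes, Benjamini-Hochberg adjusted p). Genes of the actin cytoskeleton were among them. Actb differed by 2.37 (adjusted p = 0.00744), and in PD-1- Tregs its mean went from 78288 CPM under isotype to 27790 under treatment. Actr2 differed by 2.20 (adjusted p = 0.0107), with PD-1- means of 1902 and 737 CPM.

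Other genes were higher in treated PD-1+ Tregs and lower in treated PD-1- Tregs. The antiviral protein gene Zc3hav1 differed by 2.77 (adjusted p = 0.00958 in edgeR) and Dpysl2 by 2.52 (0.0136). The RNA demethylase gene Alkbh5 differed by 2.46 (adjusted p = 0.0193 in edgeR), Ets1 by 2.03 (0.0180) and the shared cytokine receptor chain gene Il2rg by 1.40 (0.0319).

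The opposite sign was found for Nfatc1, at -4.01 (adjusted p = 0.0107 in edgeR), with PD-1- means of 24.4 CPM under isotype and 183 under treatment. Igfbp4 differed by -6.84 (adjusted p = 0.0107 in edgeR) and was lower under treatment in both populations.

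Pdcd1lg2 differed by 13.66 (adjusted p = 0.0139 in edgeR) and Gzmb by -12.90 (0.0444). Both rest on an arm of PD-1- Tregs with 0 counts, so these sizes depend on the fit and are no measure of change. Pdcd1lg2 had a mean of 40.2 CPM in PD-1- Tregs under isotype and 0 under treatment, and Gzmb 0 and 240.5. The PD-1- arms hold 2 libraries each, and 1 treated PD-1- library also carries Y-linked counts.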

How the results depend on the processing

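The 2 calls in PD-1+ Tregs were also 2 in number with DESeq2 size factors in edgeR, library size alone, no count filter, a minimum count of 50 and no robust estimation. The number was 0 with only the 5 PD-1+ libraries, 0 with only the 9 Treg libraries and 4 without the libraries with Y-linked counts. limma-voom gave 153, voom with library weights 0, log2(RPKM + 1) 65, log2(RPKM + 0.1) 57 and DESeq2 721. Leaving out 1 library gave 1 to 4, with 1 without the first and 4 without the second isotype PD-1+ library. Over the alternatives the adjusted p ran from 2.34e-14 to 1 for Ifngr1 and from 6.60e-10 to 1 for Igfbp4, each past the threshold in 23 of 30 and of 1 sign in all.

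The 196 genes that differed from PD-1- Tregs became 194 with DESeq2 size factors, 2275 with DESeq2, 409 with limma-voom and 33 to 878 when 1 library was left out. The 0 genes that differed from CD4 T cells became 313 with DESeq2, 6 with limma-voom and 0 to 3 when 1 library was left out. The cause of these differences was not tested.

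By the replicate numbers in the sample titles, 0 of 31 same-number pairs had deviations correlated above 0.1 (-0.033 to 0.074). Pairs by column number were not checked this way, and low correlations do not show that libraries are unpaired. The 3 libraries with Y-linked counts share the number 3 in their column names, and the main fit treats all 14 libraries as independent. With the replicate block the count in PD-1+ Tregs was 1 over 14 libraries (Ifngr1, adjusted p = 0.0442 against 0.0664 for Igfbp4 in edgeR), 0 over the 5 and 1 by the column numbers, an alternative chosen after seeing the data. The block gave 32 genes against PD-1- Tregs and 0 against CD4 T cells. With 2 isotype libraries and a coefficient of variation of 1.22, low genes with 0 counts in an arm give bounds only.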
